A study of Mus musculus with 10 samples.

Results

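The S100 genes encode small calcium-binding proteins, and 10 of them were followed here across melanoma tumors that can or cannot make prostaglandins. The members were S100a1, S100a3, S100a4, S100a6, S100a8, S100a9, S100a10, S100a11, S100a13 and S100b, chosen by symbol and matched to the Ensembl identifiers of the count table through the GENCODE M21 annotation. They are 10 of the 45706 genes in the table, and all 10 were among the 14550 genes tested after a filter on low counts. S100a8 and S100a9 were set against the other 8.

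S100 proteins carry EF-hand motifs that bind calcium, and most act as dimers that attach to target proteins once calcium has bound. S100A8 and S100A9 pair as calprotectin, an abundant cytosolic complex of neutrophils and some monocytes that is released in inflammation, binds zinc and manganese, and can engage Toll-like receptor 4 and the receptor for advanced glycation end-products. S100A4 and S100A6 are widely expressed in fibroblasts, macrophages and tumor cells. S100A10 and S100A11 bind annexins at membranes, and S100B is known as a marker of glia, Schwann cells and melanocytic cells.

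The tumors grew under the skin of C57BL/6 mice that were 8 weeks old and were taken whole on day 4. All were grown from 1 melanoma line of a mouse model with mutant Braf and deletion of p16INK4a. Ptgs+/+ tumors (n = 4) were made of wildtype tumor cells, and Ptgs-/- tumors (n = 3) of cells made deficient by CRISPR/Cas9 in Ptgs1 and Ptgs2, which encode the cyclooxygenases COX-1 and COX-2. The last group (n = 3) held Ptgs-/- tumors in NK cell-depleted hosts, which were given the anti-NK1.1 clone PK136 (200 µg) together with anti-asialo GM1 (30 µg) on day 0 and again on day 2. The hosts kept their own Ptgs genes, the other mice were untreated, and no Ptgs+/+ tumor of a depleted host was among the samples. Asialo GM1 is also found on cells other than NK cells. Nothing in the labels says whether tumors of a group came from separate cell preparations, so p-values measure the spread between these tumors.

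Reads came from the 3′ end of each transcript, so a gene's count does not grow with its length. The libraries held 8150556 to 12839174 counts, levels are given as CPM, counts scaled to a common library total, and 3 counts, taken as the floor, correspond to 0.234 to 0.368 CPM. Ptgs2 lay between 94.4 and 347 CPM in Ptgs+/+ tumors, between 27.0 and 74.8 in Ptgs-/- tumors and between 40.2 and 49.3 after depletion, with Ptgs+/+ replicate 3 as the lowest of its group. Ptgs1 lay between 128 and 170, between 77.0 and 105, and between 95.3 and 97.8 CPM. Both genes are also active in host cells, and a 3′ read outside an edited site does not report the edit. The summed level of 10 NK cell genes lay between 93.4 and 205 CPM in Ptgs-/- tumors and between 8.03 and 9.54 after depletion. For 10 T cell genes this sum lay between 34.6 and 91.9 CPM in Ptgs-/- tumors and between 17.9 and 32.9 after depletion. By the test described below, 1 of 9 T cell genes was lower after depletion, where 1.44% of all genes were called. Whether the antibodies reached cells other than NK cells was not tested. Of 10 melanocytic genes, 7 were too low to be tested, among them the pigment genes Pmel, Mlana, Tyr, Tyrp1 and Dct, which averaged under 1 CPM in all 3 groups. The other 3 were present, with means in the order of the groups of 21.7, 28.9 and 26.6 CPM for Mitf, 10.4, 20.5 and 22.0 CPM for Gpnmb and 2.66, 1.81 and 2.62 CPM for Sox10. The summed level of 10 skeletal muscle genes was 24.9 to 166 CPM in Ptgs+/+ tumors, 109 to 375 in Ptgs-/- tumors and 2315 to 5456 after depletion, and its part in the values of the S100 genes was not tested. Ptgs+/+ replicate 4 and Ptgs-/- replicate 3 carry another code in their labels (EB042) than the rest (EB046).

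Each comparison used the quasi-likelihood test of edgeR, with Benjamini-Hochberg adjusted p-values over all 14550 genes. A gene is called here at an adjusted p at or under 0.05, and the stricter call also asks for a log2 fold change of at least 1.5 in size. Fold changes are on the log2 scale and are given with their standard error (SE).

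The members differed widely in level. S100a6 and S100a4 led in all 3 groups, and together they held most of the counts of the 10 members. Their share was 92.2% ± 0.449 (SD, n = 4) for the Ptgs+/+ group. It was 87.9% ± 0.0920 (SD, n = 3) for Ptgs-/- tumors of untreated hosts and 89.4% ± 0.803 (SD, n = 3) for those of depleted hosts. S100a10 and S100a11 came next, at 358 to 1004 CPM. In Ptgs+/+ tumors they were followed by S100a8, S100a9 and S100a13, whose ranges overlapped from each to the next, then by S100a1, S100a3 and S100b. In Ptgs-/- tumors S100a8 had dropped to the eighth place and S100a9 to the tenth, and the ranges of neighbours overlapped from S100a1 down to S100a9. After depletion S100a8 and S100a9 held the seventh and eighth places. Of all counts in a library, the 10 members took 2.47% ± 0.201 (SD, n = 4) where the tumor cells had cyclooxygenases. They took 1.29% ± 0.104 (SD, n = 3) where the cells had none, and 1.47% ± 0.239 (SD, n = 3) where the host was also depleted.

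**Figure D1:**
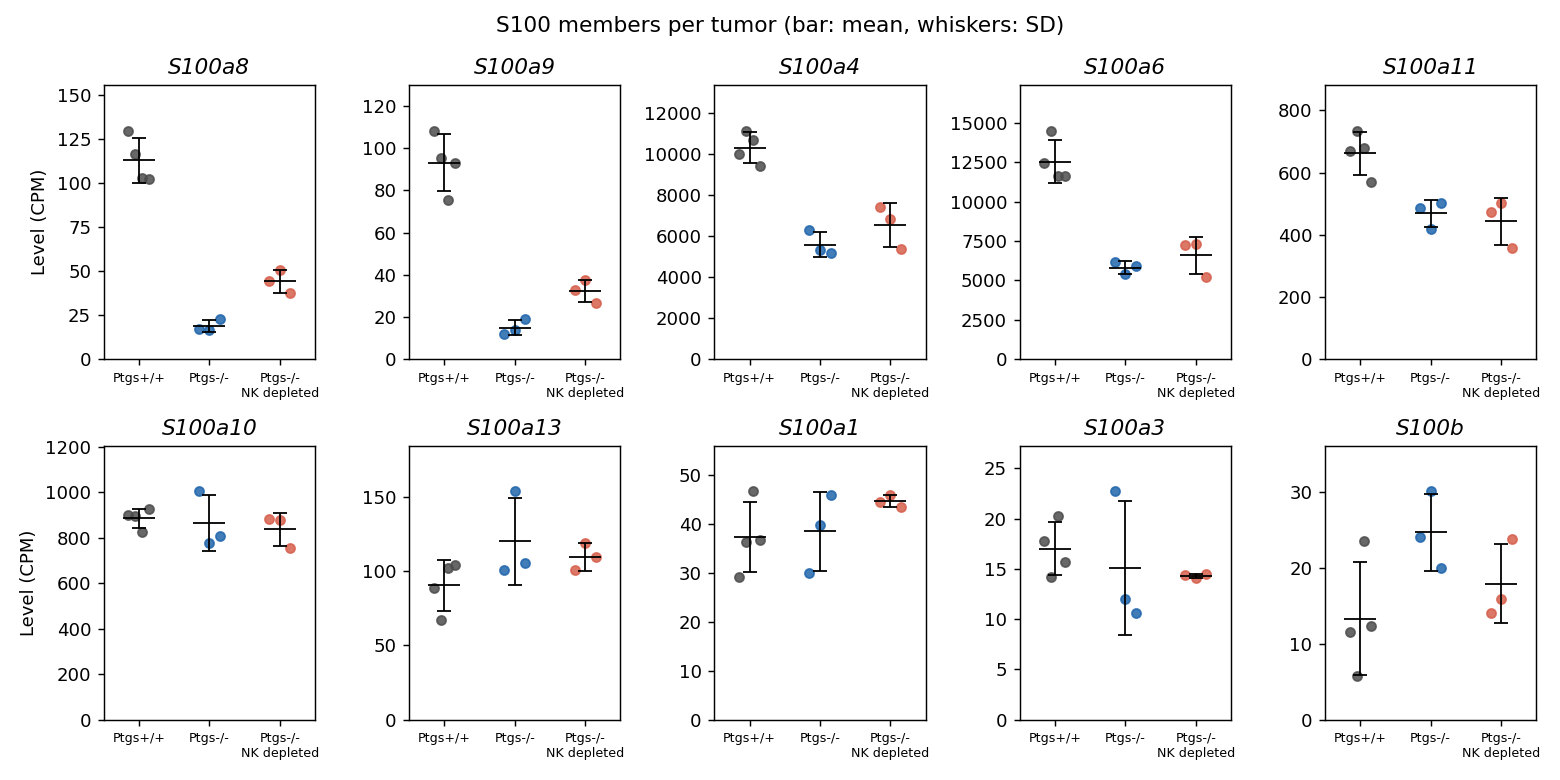
Level of each S100 member per tumor, in CPM on a linear axis that starts at 0, with 1 point per tumor in 3 groups, a bar at the mean and whiskers of 1 SD (n = 4, 3 and 3). S100a8 and S100a9 form 3 separate bands, S100a4, S100a6 and S100a11 separate the Ptgs+/+ tumors from both other groups, and the groups of the other 5 members overlap.

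The first comparison set Ptgs-/- tumors of untreated hosts beside Ptgs+/+ tumors. No tumor of Ptgs-/- cells with a cyclooxygenase restored was among the samples. Other differences between edited and wildtype cells, or in tumor size, thus cannot be told apart from the loss of cyclooxygenases. In Ptgs-/- tumors 5 of the 10 members were lower than in Ptgs+/+ tumors and none was higher. Among all genes tested 23.1% were called, 11% as lower. The groups of tumors did not overlap in CPM for the same 5 members, as they did not for 30.6% of all genes. S100a8 was 6.25-fold and S100a9 6.48-fold lower, S100a6 2.25-fold, S100a4 1.92-fold and S100a11 1.48-fold. By the stricter call 2 members, S100a8 and S100a9, were lower, against 4.15% of all genes called so and 1.01% called lower. The median log2 fold change of the members was -0.40, beside -0.01 over all genes tested, and without S100a8 and S100a9 it was -0.17.

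S100a8 (ENSMUSG00000056054, chr3:90668978-90670035 of GRCm38, plus strand), the smaller calprotectin subunit, measured 129.6, 116.1, 102.8 and 102.4 CPM in the 4 Ptgs+/+ tumors and 17.1, 16.4 and 22.8 CPM in the 3 Ptgs-/- tumors. The lowest Ptgs+/+ tumor was thus far above the highest Ptgs-/- tumor. The means were 112.7 ± 12.9 CPM (SD, n = 4) and 18.8 ± 3.50 CPM (SD, n = 3), a log2 fold change of -2.64 (SE 0.16, adjusted p 9.85e-06). In a whole tumor, fewer cells of the type that makes a transcript and less of it per cell cannot be told apart, and this holds for every level given here.

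S100a9 (ENSMUSG00000056071, chr3:90692632-90695721, minus strand), the larger subunit, measured 108.3, 95.6, 75.5 and 93.0 CPM in Ptgs+/+ tumors and 11.9, 13.8 and 19.1 CPM in Ptgs-/- tumors. Again no tumor of either group came near the other, and Ptgs+/+ replicate 3, low in Ptgs2, was also the lowest of its group in S100a9. For S100a8 the lowest was replicate 4 (102.4 CPM, against 102.8 in replicate 3), where Ptgs2 was 283 CPM. The means were 93.1 ± 13.5 CPM (SD, n = 4) and 14.9 ± 3.71 CPM (SD, n = 3), a log2 fold change of -2.70 (SE 0.19, adjusted p 1.47e-05). S100a9 had the 48th and S100a8 the 50th most negative fold change of the 14550 genes tested. Both calls held within the libraries of code EB046, at log2 fold changes of -2.82 for S100a8 (adjusted p 0.000329) and -2.88 for S100a9 (adjusted p 0.000415).

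S100a8 and S100a9 also kept to each other from tumor to tumor. S100a8 stood above S100a9 in all 10 tumors, by a ratio of 1.10 to 1.43. The ratio averaged 1.22 ± 0.108 (SD, n = 4) for Ptgs+/+ cells and 1.27 ± 0.137 (SD, n = 3) for Ptgs-/- cells. It averaged 1.37 ± 0.0270 (SD, n = 3) for depleted hosts, and the 3 ranges overlapped. When each gene was centred on its own mean of log2 CPM, the root mean squared difference over the 10 tumors was 0.12 between S100a8 and S100a9, the smallest among the 45 pairs of members. It was 0.15 between S100a4 and S100a6 and 0.19 between S100a4 and S100a11. Together, S100a8 and S100a9 made up 0.834% ± 0.107 (SD, n = 4) of the members' counts in the Ptgs+/+ group. Their share was 0.262% ± 0.0649 (SD, n = 3) in the Ptgs-/- group and 0.523% ± 0.0408 (SD, n = 3) with depletion.

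**Figure D2:**
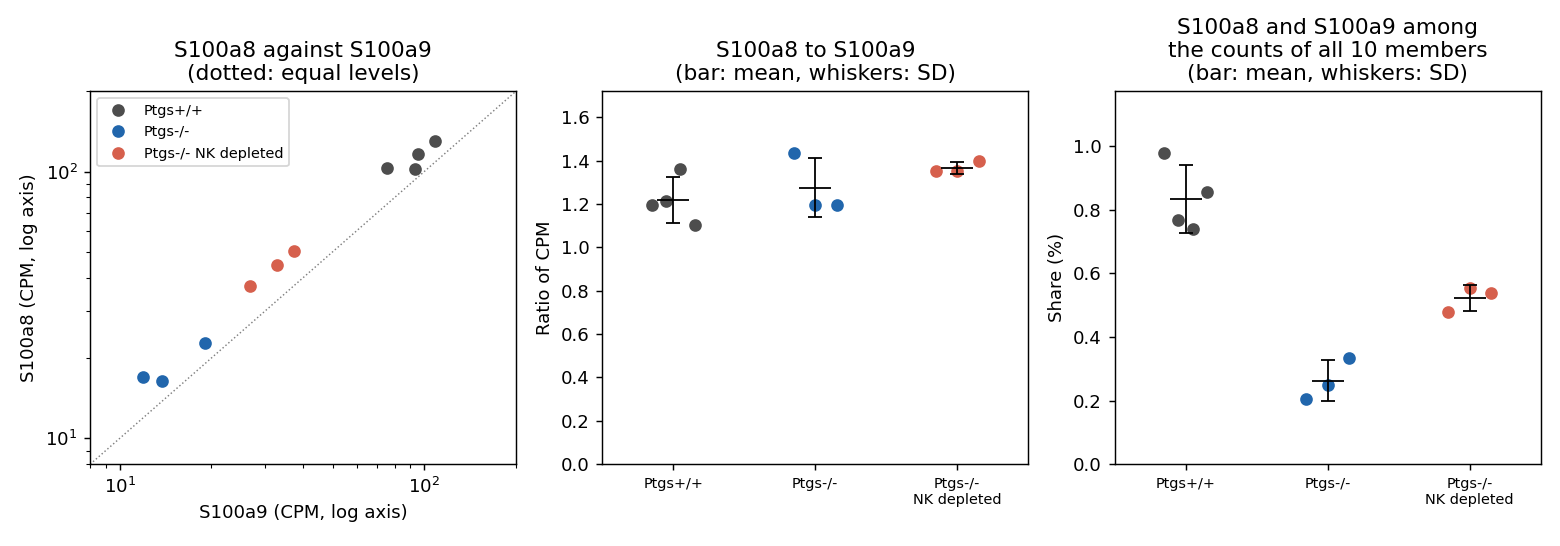
Left, S100a8 against S100a9 per tumor in CPM on log axes, with the line of equal levels; middle, their ratio per tumor; right, their share in percent of the counts of the 10 members, with bars at group means and whiskers of 1 SD. The 10 tumors lie along 1 line with ratios between 1.10 and 1.43, while the share separates the groups.

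The sequences just before both genes are shown because the pair moved together, with those of S100a4 and S100a6, which fell less, for contrast. RefSeq gives windows of GRCm38 that reach 250 bases upstream of a gene's start for 9 of the members, and S100a10 had none. All windows were searched on both strands for 5 short motifs. The C/EBP core TTNNGNAA was found in 36.8% of 32851 such windows of the genome. The PU.1 core GAGGAA was found in 23.3% of them and the AP-1 site TGANTCA in 6.75%. The TATA box, searched as TATAAA, was found in 12.4%, and the half-site of the cAMP response element, TGACG, in 17.8%. C/EBP and PU.1 factors are regulators of myeloid genes. Capitals mark matches to the C/EBP and PU.1 letters. The sequence of S100a8 is chr3:90668821-90668977, that of S100a9 is chr3:90695722-90695971 on the minus strand, that of S100a4 is chr3:90603520-90603769 and that of S100a6 is chr3:90612644-90612881. For S100a8 the last 93 bases of the window and for S100a6 the last 12 are not printed, since GENCODE starts the gene there.
S100a8: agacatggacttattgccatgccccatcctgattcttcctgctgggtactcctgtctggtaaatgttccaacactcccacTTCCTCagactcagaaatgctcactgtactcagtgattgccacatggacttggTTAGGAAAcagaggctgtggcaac
S100a9: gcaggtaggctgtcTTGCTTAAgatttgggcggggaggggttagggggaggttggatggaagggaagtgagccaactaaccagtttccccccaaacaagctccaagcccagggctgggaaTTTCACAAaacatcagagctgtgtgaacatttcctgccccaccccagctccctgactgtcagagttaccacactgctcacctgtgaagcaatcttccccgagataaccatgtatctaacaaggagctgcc
S100a4: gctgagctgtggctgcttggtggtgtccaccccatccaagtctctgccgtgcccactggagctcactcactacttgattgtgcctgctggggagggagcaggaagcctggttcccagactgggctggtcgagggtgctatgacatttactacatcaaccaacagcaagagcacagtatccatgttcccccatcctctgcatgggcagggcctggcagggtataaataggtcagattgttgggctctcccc
S100a6: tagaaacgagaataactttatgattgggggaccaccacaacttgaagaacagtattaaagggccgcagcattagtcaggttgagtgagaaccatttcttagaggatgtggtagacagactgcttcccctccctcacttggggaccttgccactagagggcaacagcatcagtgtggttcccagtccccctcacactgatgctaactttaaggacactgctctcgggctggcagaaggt

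Both calprotectin genes held a C/EBP match, S100a8 at -117 from the RefSeq start and S100a9 at -236 and -130. S100a8 also held PU.1 letters at -170 and -36 and TATAAA at -30, of which those at -36 and -30 lie beyond the printed stretch. S100a4 held TATAAA at -31 and none of the other letters, and the window of S100a6 held none of the 5 motifs. S100a11 held a PU.1 match at -153 and AP-1 matches at -136 and -38, and S100a13 held TGACG at -220. S100a3, which was not called, has 4 windows, and these held C/EBP letters at -116 in one and at -198 in another, and PU.1 letters at -189 and -16 with TATAAA at -52 in a further one. The windows of S100a1 and S100b held none of the motifs. With the C/EBP letters in 36.8% of all windows, such matches describe the windows and do not mark sites of binding.

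S100a6 (ENSMUSG00000001025, chr3:90612882-90624181, plus strand), which encodes calcyclin, measured 12421, 14500, 11605 and 11629 CPM in Ptgs+/+ tumors and 6150, 5368 and 5887 CPM in Ptgs-/- tumors. The groups did not overlap. The log2 fold change was -1.17 (SE 0.15, adjusted p 0.000387). S100a4 (ENSMUSG00000001020, chr3:90603771-90606045, plus strand), which binds non-muscle myosin and is known for its link to cell motility, measured 9988, 11119, 10642 and 9384 CPM against 6257, 5300 and 5146 CPM. These groups did not overlap either, and the log2 fold change was -0.94 (SE 0.14, adjusted p 0.000867). S100a4 lies over a second annotated gene on the same strand, Gm42674, which had no counts in any library. Among the members, the drop in S100a4 and S100a6 carried most of the drop in total S100 counts, since the other 8 together were a small share.

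S100a11 (ENSMUSG00000027907, chr3:93520488-93526287, plus strand), a partner of annexins in membrane repair, measured 668, 735, 679 and 568 CPM in Ptgs+/+ tumors and 486, 419 and 501 CPM in Ptgs-/- tumors. Every Ptgs+/+ tumor was above every Ptgs-/- tumor, although by little for replicate 4. The log2 fold change was -0.56 (SE 0.14, adjusted p 0.0144), and without Ptgs-/- replicate 2 the call was lost (-0.48, adjusted p 0.0717). The genome also holds a pseudogene of S100a11, and reads that could come from either are uncertain.

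S100a10 (ENSMUSG00000041959, chr3:93555080-93564643, plus strand), the p11 subunit of the annexin A2 complex, measured 825 to 925 CPM in Ptgs+/+ tumors and 778 to 1004 CPM in Ptgs-/- tumors. Its log2 fold change was -0.10, with a 95% interval from -0.34 to 0.15. S100a1 (ENSMUSG00000044080, chr3:90511034-90514392, minus strand), best known from heart and skeletal muscle, measured 29.3 to 46.7 and 29.9 to 45.9 CPM, a log2 fold change of -0.01 (interval -0.38 to 0.36). The ranges of both genes overlapped almost wholly between the groups.

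S100a13 (ENSMUSG00000042312, chr3:90514435-90524581, plus strand), which takes part in the release of proteins that lack a signal peptide, measured 67.0 to 104 CPM in Ptgs+/+ and 101 to 154 CPM in Ptgs-/- tumors. The log2 fold change was 0.35 (interval -0.03 to 0.73) and the groups overlapped. S100a3 (ENSMUSG00000001021, chr3:90560578-90602702, plus strand), a zinc-binding member known from hair, measured 14.2 to 20.3 and 10.6 to 22.7 CPM. The log2 fold change was -0.24 (interval -0.76 to 0.29). The highest value was that of Ptgs-/- replicate 1, and without it the gene was called (-0.66, adjusted p 0.0202). The S100a3 gene as annotated encloses S100a2, which had at most 8 counts in a library.

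S100b (ENSMUSG00000033208, chr10:76253853-76261159, plus strand), the 1 member outside chromosome 3, measured 11.5, 5.77, 23.6 and 12.3 CPM in Ptgs+/+ tumors and 24.0, 30.1 and 20.0 CPM in Ptgs-/- tumors. Ptgs+/+ replicate 3 lay within the Ptgs-/- range, and the rest of its group lay below it. The log2 fold change was 0.83 (SE 0.36, interval 0.05 to 1.61) and missed the threshold (adjusted p 0.119). It was called without Ptgs+/+ replicate 3 (1.26, adjusted p 0.00793) and when no filter on low counts was used (0.86, adjusted p 0.0293). Summed over 8 Schwann cell genes, the level was 70.5 to 275 CPM in Ptgs+/+ and 162 to 530 CPM in Ptgs-/- tumors, and within the Ptgs+/+ group both S100b and this sum were lowest in replicate 2 and highest in replicate 3. In Ptgs-/- tumors they did not run together, since replicate 2 was highest in S100b and lowest in this sum. In depleted hosts S100b (14.1, 15.9 and 23.8 CPM) and the sum (172, 212 and 350 CPM) rose in the same order of replicates. In the first comparison 3 of the 7 Schwann cell genes tested were called, all as higher (Mbp, Cnp and Mag), beside 23.1% of all genes called in either direction. Pmp2 had no counts, and the part of such cells in S100b was not tested. S100b also overlaps Dip2a on the other strand by 1731 bases, and since the strand setting of the counting is not stated, its counts are uncertain. Dip2a held 235 to 366 counts per library.

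**Figure D3:**
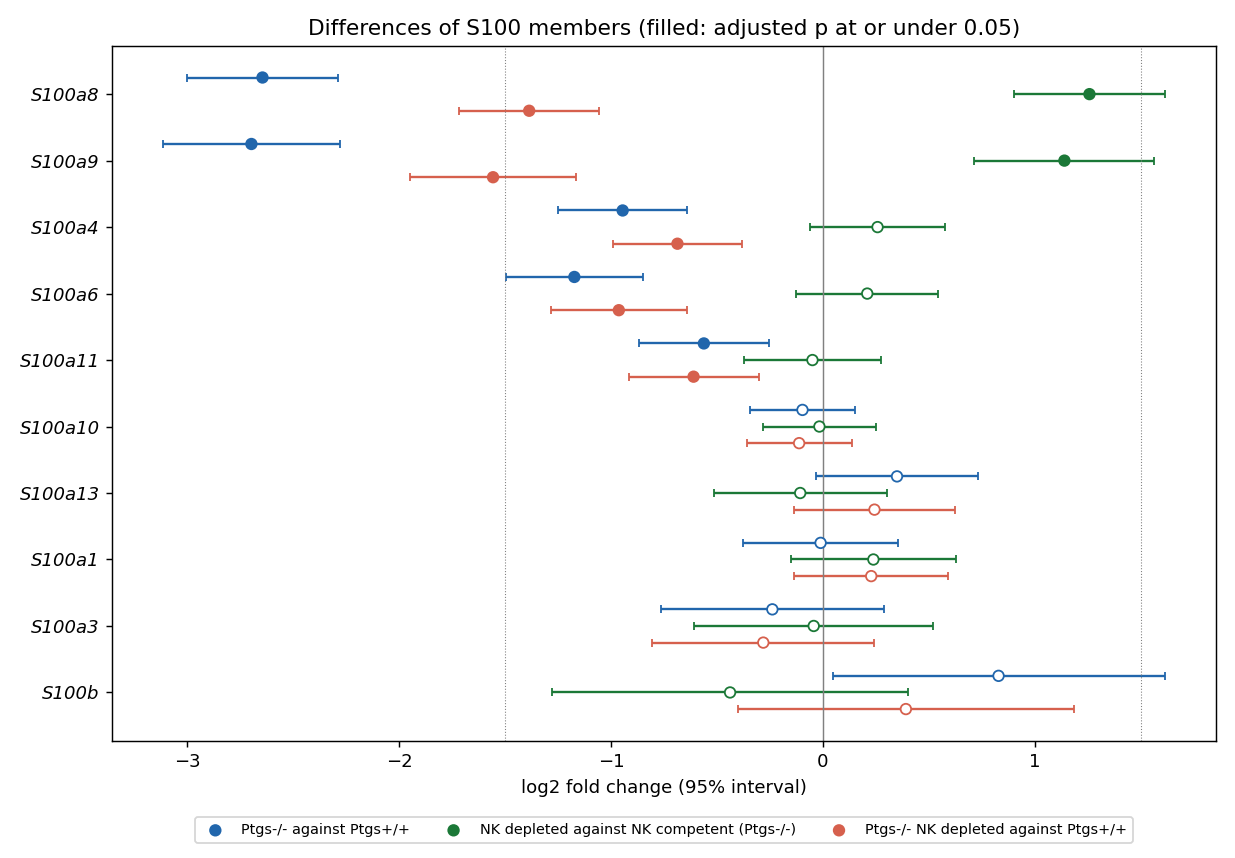
Log2 fold change of each member with its 95% interval in the 3 comparisons, where filled points have an adjusted p at or under 0.05 and dotted lines stand at 1.5 on either side of 0. S100a8 and S100a9 are alone among the 10 members in having filled points on both sides of 0.

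The second comparison asked how the same genes stood when NK cells had been removed from hosts of Ptgs-/- tumors. Of the 10 members 2 were higher than in Ptgs-/- tumors of untreated hosts, S100a8 and S100a9, and none was lower. Among all genes tested 1.44% were called, 0.921% as higher. The groups of tumors did not overlap for the same 2 members, against 17.6% of all genes. No member passed the stricter call by edgeR's quasi-likelihood test, against 1.15% of all genes, and 2 members had an unadjusted p under 0.05, against 11.2% of all genes. DESeq2 also gave 0 by the stricter call. The median log2 fold change of the members was 0.10, beside 0.01 over all genes.

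S100a8 measured 44.5, 50.4 and 37.3 CPM in the 3 tumors of depleted hosts. All 3 lay above the highest Ptgs-/- tumor of an untreated host (22.8 CPM) and below the lowest Ptgs+/+ tumor (102.4 CPM). The rise was 1.26 on the log2 scale (SE 0.16, adjusted p 0.00237), and the mean of 44.1 ± 6.52 CPM (SD, n = 3) was 39.1% of that of Ptgs+/+ tumors. S100a9 measured 33.0, 37.3 and 26.7 CPM in depleted hosts. These values too lay between those of the other groups without overlap. The rise was 1.14 (SE 0.19, adjusted p 0.0116), and the mean of 32.3 ± 5.30 CPM (SD, n = 3) was 34.7% of that of Ptgs+/+ tumors. The call of S100a9 was lost without Ptgs-/- replicate 2 (1.08, adjusted p 0.0754) and without replicate 2 of the depleted group (1.02, adjusted p 0.0615), while its size hardly moved. Within code EB046 both remained called, at 1.39 for S100a8 (adjusted p 0.0157) and 1.32 for S100a9 (adjusted p 0.0309).

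The other 8 members did not pass the test, with log2 fold changes from -0.44 for S100b to 0.26 for S100a4. S100a4 measured 7421, 6839 and 5344 CPM and S100a6 7219, 7319 and 5193 CPM in depleted hosts. In both genes replicates 1 and 2 stood above all Ptgs-/- tumors of untreated hosts and replicate 3 among or below them. Their intervals ran from -0.06 to 0.58 for S100a4 and from -0.13 to 0.55 for S100a6, which leaves out a rise as large as the 1.26 of S100a8. S100a11 measured 473, 501 and 358 CPM and did not differ beyond its spread (-0.05, interval -0.37 to 0.28). Against the median of the other 8 members, S100a8 stood 1.29 and S100a9 1.17 higher on the log2 scale.

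The third comparison set Ptgs-/- tumors of depleted hosts beside Ptgs+/+ tumors. It shares tumors with both comparisons before it, so its values are given beside theirs and are not a further test of them. Of the members 5 were lower and none higher, where 12.5% of all genes were called and 5.87% as lower. The groups of tumors did not overlap for the same 5, against 27.1% of all genes. S100a8 had a log2 fold change of -1.39 (SE 0.15, adjusted p 0.000171) and S100a9 of -1.56 (SE 0.18, adjusted p 0.000233). S100a9 was the 1 member past the stricter call, against 2.71% of all genes called so and 0.701% called lower. Without Ptgs+/+ replicate 1 or without replicate 3 of the depleted group 0 members passed it, and without replicate 2 of the depleted group 2 did, S100a8 and S100a9. The pair lay on either side of the limit of 1.5 with overlapping intervals, from -1.72 to -1.06 for S100a8 and from -1.95 to -1.17 for S100a9, so the difference between them in this call is not a difference in response. S100a6 (-0.96, SE 0.15, adjusted p 0.00157), S100a4 (-0.69, SE 0.14, adjusted p 0.00794) and S100a11 (-0.61, SE 0.14, adjusted p 0.0154) were also lower. S100a11 was no longer called without replicate 3 of the depleted group (-0.46, adjusted p 0.0656).

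Side by side, S100a8 stood at 16.6% and S100a9 at 16% of their Ptgs+/+ means in Ptgs-/- tumors of untreated hosts. In those of depleted hosts they stood at 39.1% and 34.7%. For S100a6 the shares were 46.3% and 52.5%, for S100a4 54.1% and 63.5%, and for S100a11 70.7% and 67.0%. S100a10 stayed at 97.4% and 94.6%.

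The members that fell were not all neighbours on the chromosome. The 9 members on chromosome 3 span 3.05 Mb, with 7 of them in the first 185 kb. S100a1 and S100a13, next to each other at one end, were not called in any comparison, whereas S100a4 and S100a6, and S100a8 and S100a9 further on, fell. S100a11 and S100a10 sit next to each other and far from the rest, and S100a11 fell while S100a10 was not called. Of 8 further S100 genes, 5 were tested, and 1 was lower and 1 higher in Ptgs-/- tumors, where 23.1% of all genes were called. S100a5, between S100a4 and S100a6, was lower (-2.25, SE 0.42, adjusted p 0.00299), with 20 to 30 counts in Ptgs+/+ libraries and 4 to 6 in Ptgs-/- libraries. S100a16 was higher (0.64, SE 0.19, adjusted p 0.0313). S100a14 had a log2 fold change of -1.99 with an adjusted p of 0.101.

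**Figure D4:**
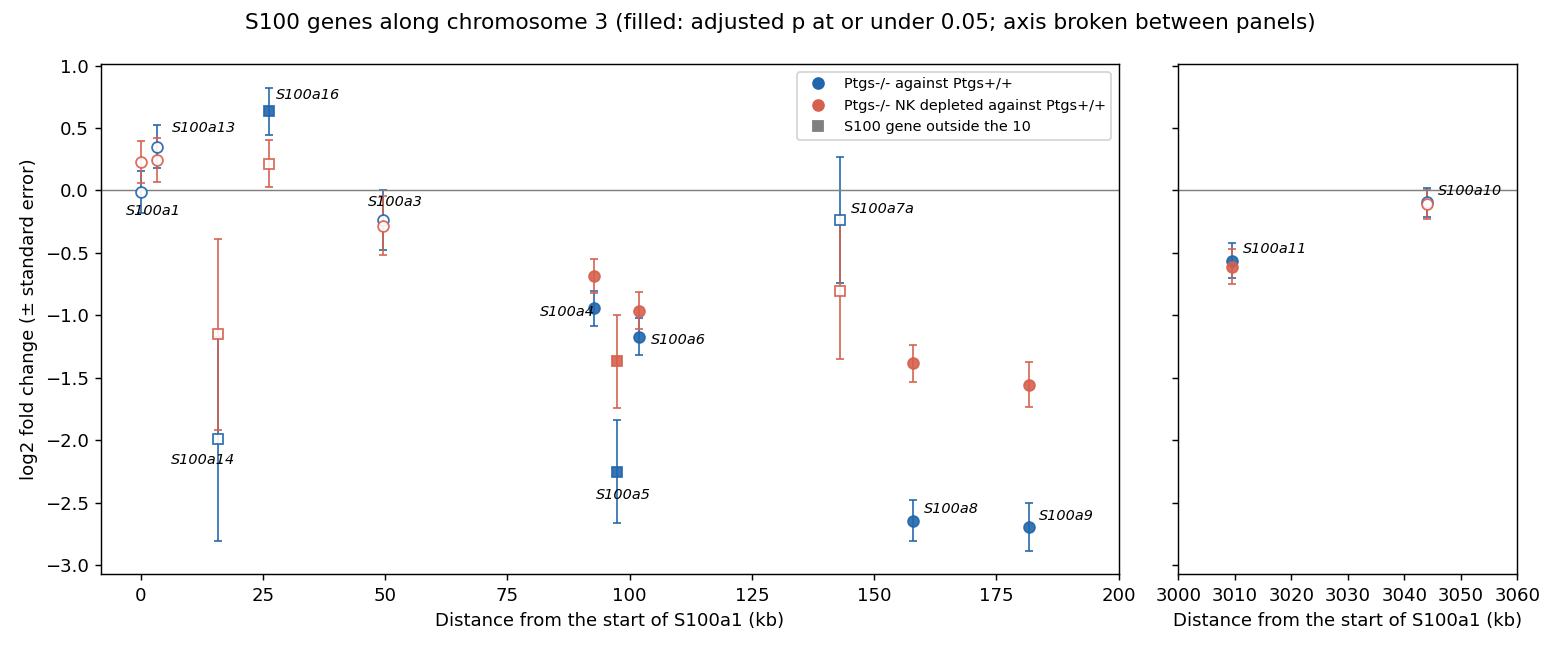
Log2 fold change with its standard error, against Ptgs+/+ tumors, of the tested S100 genes by distance in kb from the start of S100a1 on chromosome 3, with the axis broken between the panels. Circles are members, squares other S100 genes and filled symbols have an adjusted p at or under 0.05. The genes from S100a4 to S100a9 lie below 0, S100a7a among them without a call, and S100a11 lies low beside S100a10 near 0.

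Genes known to be made by neutrophils were set beside the calprotectin pair, since neutrophils carry much of it. Of a list of 20, 12 could be tested. In Ptgs-/- tumors 6 of these were lower and none higher, where 23.1% of all genes were called, 11% as lower. The median log2 fold change of the 12 was -1.38. Of the 6 not called, Csf3r (0.61), Fpr1 (0.56), Fpr2 (0.51) and Retnlg (0.28) lay above 0. Ltf (-1.40) and Il1r2 (-0.50) lay below it. Among those called, Mmp9, which encodes a gelatinase, averaged 290 CPM in Ptgs+/+ and 33.5 in Ptgs-/- tumors (-3.17, SE 0.26, adjusted p 3.63e-05), the lectin gene Clec4d 42.0 and 9.82 (-2.17, adjusted p 0.000628), and the chemokine receptor gene Cxcr2 10.5 and 2.15 (-2.32, adjusted p 0.00031). The sum over the 20 genes was 343 to 515 CPM in Ptgs+/+ tumors, 112 to 166 in Ptgs-/- tumors and 139 to 169 after depletion, and most of it came from Mmp9 and Il1r2 (70.7, 51.8 and 40.0 CPM on average in the 3 groups). Ly6g, which defines mouse neutrophils, had at most 5 counts in a library, and the granule genes Elane, Ngp and Mpo at most 1, 2 and 5. After depletion none of the 12 was called higher and Fpr2 was lower (-1.35, adjusted p 0.0137). Of all genes 1.44% were called in that comparison, 0.921% as higher. The median log2 fold change of the 12 was 0.71, beside 0.01 over all genes. The values of Retnlg (1.49, adjusted p 0.17), Mmp8 (1.18, adjusted p 0.0874), Cxcr2 (1.17, adjusted p 0.108), Trem1 (1.16, adjusted p 0.252) and Lcn2 (1.03, adjusted p 0.553) were near those of the pair but did not pass the test. Those of Ltf (0.79), Mmp9 (0.64) and Clec4d (0.02) were smaller. Fpr1 (-1.30, adjusted p 0.0575), Il1r2 (-0.35) and Csf3r (-0.19) went the other way, also without a call. The part of neutrophils in the values of S100a8 and S100a9 was not tested.

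**Figure D5:**
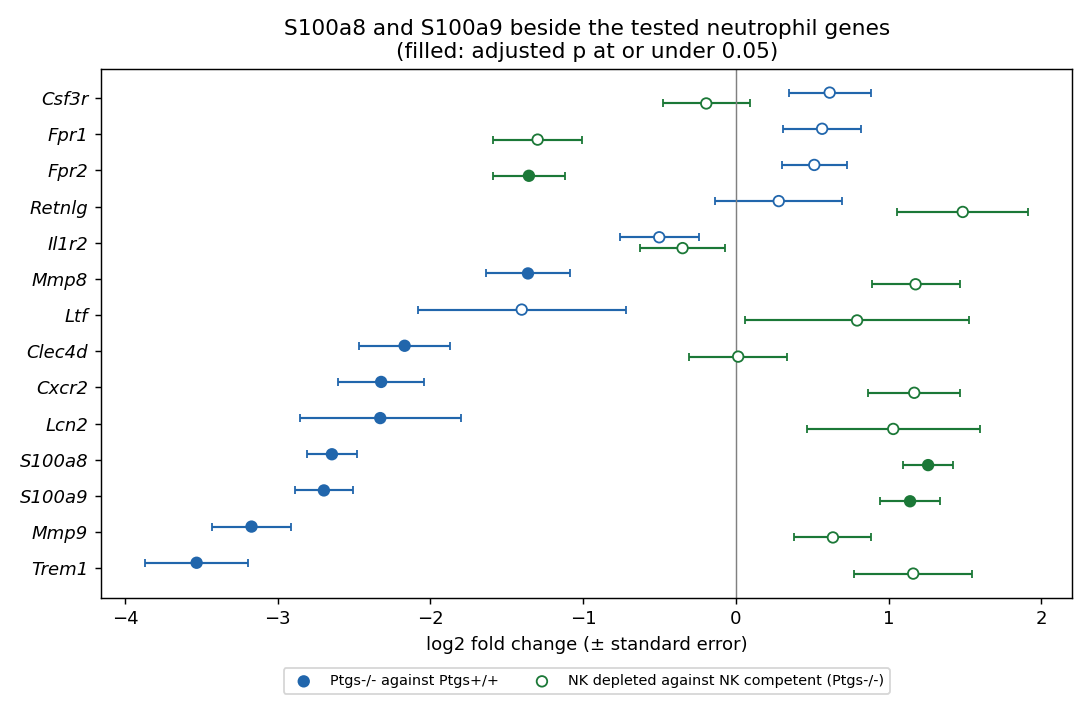
Log2 fold change with its standard error of S100a8, S100a9 and the 12 tested neutrophil genes in Ptgs-/- against Ptgs+/+ tumors and in depleted against untreated hosts of Ptgs-/- tumors. Filled points have an adjusted p at or under 0.05: 8 of the 14 genes are filled on the left in the first comparison, and in the second S100a8 and S100a9 are filled above 0 and Fpr2 below it.

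Keratinocytes, which also make S100A8 and S100A9 when stressed, were followed by 10 keratin and hair genes, of which 4 could be tested. Krt5 was lower in Ptgs-/- tumors (-1.81, adjusted p 0.026), and Krt14 (-1.67, adjusted p 0.0725), Krt15 (-1.42, adjusted p 0.0528) and Krt10 (0.44, adjusted p 0.247) did not pass the test. Of all genes 23.1% were called in that comparison, 11% as lower. The median of the 4 was -1.55, and it was 0.95 in depleted against untreated hosts, where none was called, against 1.44% of all genes. The other 6, among them Krt1, Lor and Flg2, had at most 3 counts in a library. The sum of the 10 was 20.9 to 31.5 CPM in Ptgs+/+ tumors, 19.3 to 24.0 in Ptgs-/- tumors and 26.3 to 28.5 after depletion. Krt10, with means of 11.6, 16.4 and 16.7 CPM in the 3 groups, was its largest part. Krt6a, a keratin gene outside the list, averaged 43.4, 5.74 and 9.57 CPM. It is named because its pattern was among the 5 most like S100a8 and S100a9, so its likeness to them follows from that choice. The part of keratinocytes in the values of S100a8 and S100a9 was not tested.

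Monocyte and macrophage genes went the other way in Ptgs-/- tumors. Of 8 monocyte genes 5 were higher, among them Fn1 (0.89), Ccr2 (1.75) and Plac8 (1.55), and Vcan was lower (-0.93). Their sum was 1177 to 1569 CPM in Ptgs+/+, 2766 to 3215 in Ptgs-/- and 2118 to 2451 CPM in depleted hosts. Fn1, with means of 718, 1383 and 1140 CPM in the 3 groups, was the largest part of this sum. Of 10 macrophage genes 7 were higher and none lower. Beside both lists, 23.1% of all genes tested were called in this comparison. Ly6c2 is a gene of classical monocytes, which also express S100a8 and S100a9. It was higher in Ptgs-/- tumors (2.19, adjusted p 0.000131) and lower in depleted than in untreated hosts (-1.16, adjusted p 0.0378). The other 7 monocyte genes were not called between depleted and untreated hosts, where 1.44% of all genes were called. The part of monocytes and macrophages in the values of the pair was not tested.

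In Ptgs-/- against Ptgs+/+ tumors, edgeR's quasi-likelihood test called none of 10 genes of S100 receptors and 3 of 9 tested genes of S100 partners, where 23.1% of all genes were called. Tlr4, the receptor for calprotectin, averaged 25.8, 26.5 and 27.1 CPM in the 3 groups, and Ager, which encodes the receptor for advanced glycation end-products, 0.744, 1.16 and 0.735 CPM. In depleted hosts against Ptgs+/+ tumors the co-receptor gene Cd14 was lower (-0.50, adjusted p 0.0389) and Alcam higher (0.56, adjusted p 0.0237). The other 8 receptor genes were not called in that comparison, where 12.5% of all genes were called. Among the partners, Myh9, the myosin that S100A4 binds, was higher in Ptgs-/- tumors (0.50, adjusted p 0.00834), as was Capn1, and Cacybp, which binds S100A6, was lower (-0.55, adjusted p 0.00316). Anxa2, the partner of S100A10, had a log2 fold change of -0.34 (adjusted p 0.0515).

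Genes of factors and cytokines known to act on S100a8 and S100a9 split in direction. Of 11 tested, 5 were lower in Ptgs-/- tumors and 3 higher, where 23.1% of all genes were called, 11% as lower. Il1b averaged 90.3 CPM in Ptgs+/+ and 21.1 in Ptgs-/- tumors (-2.15, adjusted p 6.13e-06), and it averaged 22.3 CPM after depletion. Il6 (-3.39, adjusted p 0.00157), Stat3 (-0.33), Hif1a (-0.61) and Cebpd (-0.83) were also lower. Spi1, which encodes PU.1, was higher (0.57, adjusted p 0.00667), as were Cebpe (1.80, adjusted p 0.00135) and Gfi1 (2.14, adjusted p 0.029). Cebpe averaged 0.658 CPM in Ptgs+/+ and 2.44 in Ptgs-/- tumors, and Gfi1 0.383 and 1.73. Cebpa (0.02), Cebpb (-0.22) and Tnf (1.06, adjusted p 0.0562) were not called. In depleted against untreated hosts none of the 11 was called by edgeR's quasi-likelihood test, against 1.44% of all genes.

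The genes whose pattern over the 10 tumors was most like S100a8, apart from the members, were Cxcr2, Cxcl5, Slit2, Ereg and Krt6a, at root mean squared differences of centred log2 CPM of 0.29, 0.31, 0.33, 0.39 and 0.41. The median over 14540 genes was 1.15. Those most like S100a9 were Cxcr2 (0.27), Cxcl5 (0.32), Slit2 (0.35), Krt6a (0.38) and Ocstamp (0.38), with a median of 1.18. Cxcl5, a chemokine that acts through CXCR2, averaged 102.0 CPM in Ptgs+/+, 14.4 in Ptgs-/- and 33.8 CPM in depleted hosts. None of them was as close to either gene as S100a8 and S100a9 were to each other.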

How the data were processed

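Bulk tumor RNA of 10 mice was sequenced with the QuantSeq 3′ kit (FWD). The authors trimmed reads (BBDUK, fqtrim, cutadapt), used STAR for alignment to GRCm38 and featureCounts for counting per gene. The deposited values are raw counts, not normalized. The strand setting and the treatment of reads with several matches are not given in the sources used here. The submitters' processing notes also name bcl2fastq, mm10 and edgeR.

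Here, symbols came from GENCODE M21 (45143 of 45706 genes named). Counts entered edgeR 4.0.16 (R 4.3.3) with filterByExpr, TMM factors and the quasi-likelihood test, all 3 groups in 1 model. Standard errors were taken from the F statistic. The alternatives included DESeq2 1.42.0, other scalings and filters, the label code as a term and each library left out. CPM were divided by library totals alone. Patterns were compared as log2 CPM (prior count 2). Pairs of replicates differed by chi-square values of 8.06 to 33.2 per degree of freedom over genes, so all 10 were counted as separate libraries. The 95% intervals of fold changes come from the fitted model, and the floor of 3 counts covers counting error only. The code was tested on simulated data.

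The members and gene lists were chosen with earlier results of these data known. Named genes were the 10 members, up to 4 called genes of highest level per list in the comparison described, markers at or near 0, and the 5 genes nearest in pattern to S100a8 and to S100a9. Others, among them receptors, regulators and some markers beside a result, were named after their values were seen.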

Additional observations from a re-analysis of the deposited data

Results flagged for a closer look

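In groups of 4 tumors, the gap of the farthest tumor to the others was compared with Dixon's limit for 94 named genes, and 6 passed, where chance gives about 1 in 20. None of them was among the 10 members. Actn3, a skeletal muscle gene, stood at 5.71 CPM in Ptgs+/+ replicate 3, against 0.732 to 1.55 CPM in the rest of the group. Capn1, a calpain subunit that S100 proteins bind, stood at 62.9 CPM in Ptgs+/+ replicate 4, against 67.1 to 67.5 CPM. S100g, which encodes calbindin-D9k, stood at 0.523 CPM in Ptgs+/+ replicate 4, against 0.928 to 0.966 CPM. Sox10, a neural crest factor, stood at 5.53 CPM in Ptgs+/+ replicate 3, against 1.48 to 1.86 CPM. Trem1, a receptor of myeloid cells, stood at 12.5 CPM in Ptgs+/+ replicate 1, against 9.42 to 9.74 CPM. Krt1 stood at 0.0878 CPM in Ptgs+/+ replicate 3, which is 1 count, and at 0 in the rest of the group.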

How the results depend on the processing

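The counts of members called were recomputed under 20 alternatives, and no member's fold change that was called changed sign. By the stricter call, Ptgs-/- against Ptgs+/+ tumors gave 2 members under all 20 and depleted against untreated hosts 0 under all 20. Depleted hosts against Ptgs+/+ tumors gave 1 member (S100a9) in 17 of them, and between 0 and 2 when libraries were left out: 0 without Ptgs+/+ replicate 1 or without replicate 3 of the depleted group, and 2 without replicate 2 of the depleted group. At the adjusted p alone, the count was 4 to 6 for Ptgs-/- against Ptgs+/+ tumors, 1 to 2 for depleted against untreated hosts and 4 to 5 for depleted hosts against Ptgs+/+ tumors. The 1 came without Ptgs-/- replicate 2 and without replicate 2 of the depleted group, when S100a9 lost its call. The cause was not tested.

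Deviations from the group means had correlations of -0.24 to 0.36 between same-numbered tumors and of -0.43 to 0.17 between differently numbered ones. With 3 or 4 tumors a group, these values cannot settle whether the numbers mark pairs. With the label number as a replicate block the counts stayed at 2, 0 and 1 by the stricter call and at 5, 2 and 5 at the adjusted p alone.

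With 3 or 4 tumors a group and 56 to 291 counts per library, S100b was the member with the widest interval. All NK cell-depleted tumors carry 1 code, so the code can be told apart from the groups only through the other 7 tumors.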
